A study of Mus musculus with 11 samples.

Results

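The genes described here carry the symbol Ttc followed by a number and encode proteins with tetratricopeptide repeats. RefSeq lists 42 protein-coding genes of this kind on the mouse assembly GRCm38.p6. The rule that chose the members left out 5 of them (Ttc8, Ttc21b, Ttc25, Ttc26 and Ttc30b), so 37 of 21887 protein-coding genes were members. The rule used gene names and no measured value, but it was set with earlier results of these data known. RFX1, RFX2 and RFX3 were mapped by chromatin immunoprecipitation and sequencing (ChIP-seq) in ependymal cells, which carry many motile cilia and line the ventricles, to learn where each factor sits on DNA. All cells were wild type, of the OF1 mouse strain, taken at P0 from the lateral walls of the brain and differentiated ex vivo; the labels call the tissue embryonic. The 11 samples were 2 ChIP samples for each RFX and 5 input samples (2 each for RFX1 and RFX2, and a single one for RFX3), and no group carried a treatment or a mutation. A separate antibody was used per factor, and the lots of the RFX2 antibody were not the same in its replicates. The replicates of an RFX were merged into 1 list of reproducible peaks, so no value here carries a replicate error, and sequencing depth is unknown. Expression was not measured, so the cell type could not be checked against its markers.

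A tetratricopeptide repeat is a short pair of helices. Several in a row form a curved scaffold that holds other proteins. Such scaffolds serve in transport along the cilium and in the assembly of dynein motors. Others help chaperones, handle RNA or work at membranes, so the shared name does not mean a shared function. RFX factors have a winged-helix DNA-binding domain that recognises the X-box, an imperfect inverted repeat, and are known as regulators of ciliary genes.

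The peak lists held 7440 peaks for RFX1, 1250 for RFX2 and 9318 for RFX3. Bound genes were those with a summit (the point of strongest signal in a peak) no more than 1 kb from either annotated end. The fold enrichment, how far the ChIP signal exceeded the background at the summit, and the −log10 q, the caller's q-value on a log scale, are the authors' values for each peak. Longer lists reach weaker sites, and a peak missing from a list does not show that the factor was absent.

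The sequences below show the promoter stretches nearest to the X-box pattern, with the RFX1 summit inside the stretch except where stated. They are reference promoter sequence from RefSeq on GRCm38.p6, not reads from these cells. The table holds 300 bases per start, from 250 before it to 50 after. An X-box was searched as GTTGCC, then 1 to 3 bases of any kind, then its reverse complement GGCAAC, which reads the same on both strands. Of the 12 fixed letters, up to 2 could mismatch. The stretch nearest to this pattern in each window is in capitals, and a match is a description of letters, not a proven site. Each line is written 5′ to 3′ on the strand of the gene whose promoter it is. Stretches inside an annotated gene were kept to 30 bases. The 6 bound members with the highest RFX1 −log10 q were to be shown, in that order, which leaves out Ttc13 and Ttc34 (3 mismatches each, centred 9.5 and 30 bp from the RFX1 summit). Ttc30a2 was added after its letters were seen, because it came closest to the pattern, and its stretch does not reach the summit. Ttc23l and Ttc6 were added likewise, as unbound members with a close pattern and no summit. Of the 6, Ttc41 is not shown because the promoter in the table lies 6905 bp from its RFX1 and RFX3 summits.
Tor2a promoter inside Ttc16, chr2:32757073-32757102, + strand: agttacccGTGACCATGGCAACgcgggact
Ttc16 second start, chr2:32775399-32775428, − strand: gtggacctGGTGCCTAGCAACaacggagct
Ttc27, chr17:74717564-74717658, + strand: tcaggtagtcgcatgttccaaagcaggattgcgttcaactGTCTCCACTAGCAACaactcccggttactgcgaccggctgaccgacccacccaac
Ttc21a, chr9:119937604-119937633, + strand: gcagccagGTTGCCAAGGACGCgcgcgcct
Ttc12, chr9:49486276-49486368, − strand: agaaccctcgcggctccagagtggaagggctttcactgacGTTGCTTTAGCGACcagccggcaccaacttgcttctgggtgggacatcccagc
Ttc29, chr8:78213293-78213322, + strand: gcccctctGTTTCCATGGAGACgctttcag
Ttc30a2, chr2:75978180-75978243, − strand: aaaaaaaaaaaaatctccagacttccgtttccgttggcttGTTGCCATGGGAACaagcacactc
Ttc23l, unbound, chr15:10558687-10558716, − strand: agtgttccATTCCCATGGCAACgcattgtc
Ttc6, unbound, chr12:57564090-57564119, + strand: cgaggctcGTTGCTAAGCAACaagggagcc

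RFX1 and RFX3 sat at the ends of a minority of the Ttc genes, mostly together, and RFX2 at a single one. RFX1 was bound at 10 of 37 members (27.0%, exact Clopper-Pearson interval 13.8 to 44.1), against 9.05% of all protein-coding genes. RFX3 was bound at 9 (24.3%, 11.8 to 41.2), against 7.94%. RFX2 was bound at 1 (2.70%, 0.0684 to 14.2), which is near its background of 2.08%. The intervals cover the counting of genes only, and members are not replicates. At least 1 RFX was bound at 10 members (27.0%), against 10.1% of all genes. The bound members were Ttc12, Ttc13, Ttc16, Ttc21a, Ttc27, Ttc29, Ttc30a1, Ttc30a2, Ttc34 and Ttc41. By class, 8 had RFX1 with RFX3, Ttc41 had all 3 factors, Ttc30a2 had RFX1 alone and no member had RFX3 alone. Among the 2211 bound genes of the whole series, 1056 (47.8%) had RFX1 with RFX3, 451 (20.4%) had all 3, 469 (21.2%) had RFX1 alone and 231 (10.4%) had RFX3 alone. These shares were not tested against each other.

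**Figure D1:**
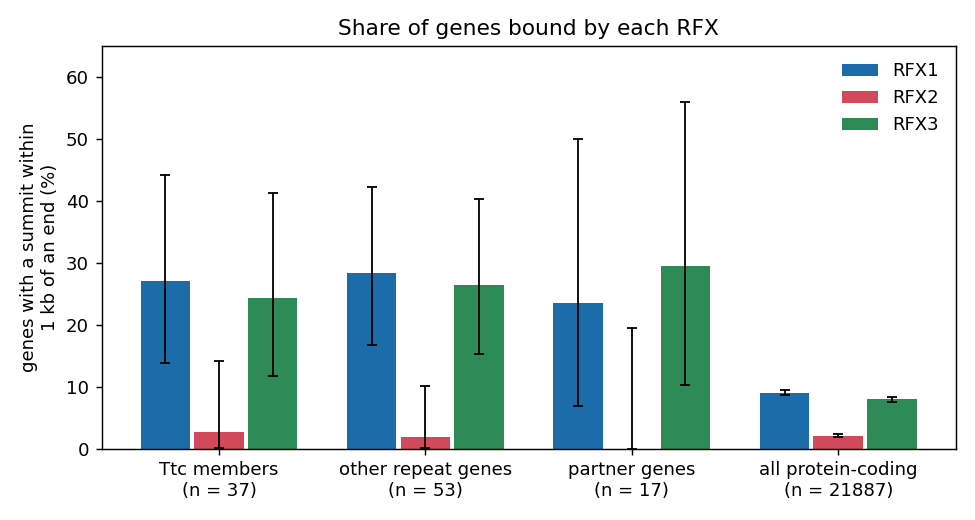
Share of genes (%, vertical axis) with a summit of RFX1, RFX2 or RFX3 within 1 kb of an end, for the 37 Ttc members, 53 other repeat genes, 17 partner genes and all 21887 protein-coding genes; bars are shares and lines are 95% exact intervals that cover counting only. The RFX1 and RFX3 bars of the members stand at 27.0% and 24.3%, while the RFX2 bar is at 2.70%.

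Many of these calls rested on a summit that a neighbouring gene also reached. Of the 10 members with RFX1, 6 had no summit of their own, and the same held for 4 of the 9 with RFX3 and for the RFX2 call at Ttc41. Among the 6, Ttc30a1 and Ttc30a2 shared their RFX1 summit only with each other. Both leave the RFX1 count below, although no protein-coding gene outside the members shared that summit. With shared summits left out, RFX1 was bound at 4 members (10.8%, against 5.97% of all genes), RFX3 at 5 (13.5%, against 5.46%) and RFX2 at 0 (against 1.28%). Which of the neighbours a shared site serves cannot be told apart in these data. Kept to its best 1250 peaks, RFX1 held 3 members (Ttc16, Ttc27 and Ttc41, 8.11% against 3.10% of all genes) and RFX3 held 0 (against 2.07%). With the better-scoring 50% of each list, RFX1 and RFX3 held 7 members each (18.9%, against 6.28% and 5.71% of all genes).

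Among the bound members, Ttc12, Ttc21a, Ttc29, Ttc30a1 and Ttc30a2 have known roles in cilia or flagella. Ttc12, a cytoplasmic factor needed to assemble the dynein arms of motile cilia, lies on chromosome 9 (49436961–49486275, − strand). Its RFX1 summit lay 24 bp upstream of the gene start, with a fold of 10.05 and a −log10 q of 62.3, rank 1576 of 7440. An RFX3 summit lay 30 bp upstream, with a fold of 5.46 and a −log10 q of 39.8, rank 2136 of 9318. A second, weaker RFX3 summit lay 304 bp inside the gene (fold 3.47, −log10 q 17.5). No other protein-coding gene had an end within 1 kb of these summits, so Ttc12 kept both factors when shared summits were left out.

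Ttc21a, a paralogue of the transport gene Ttc21b that is known from the sperm flagellum, lies on chromosome 9 (119937589–119969430, + strand). RFX1 had its summit 28 bp inside the start, with a fold of 9.78 and a −log10 q of 66.0 (rank 1440). The RFX3 summit, 25 bp inside, had a fold of 3.62 and a −log10 q of 30.8 (rank 2950). Both summits also lay 59 and 56 bp from the start of Gorasp1, a Golgi stacking gene on the opposite strand. The GTTGCC half-site in the sequence of Ttc21a above is complete, and the centre of the pattern lay 1.5 bp from the RFX1 summit and 4.5 bp from the RFX3 summit.

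Ttc29, a gene of the sperm flagellum, lies on chromosome 8 (78213282–78394326, + strand). RFX1 was called 32 bp inside its start with a fold of 6.17 and a −log10 q of 36.4 (rank 2975). RFX3 was called 15 bp inside with a fold of 3.04 and a −log10 q of 12.7, rank 7116 of 9318, which is the weakest best peak among the members. A further RFX3 summit lay deep in the gene, 34.8 kb from an end (fold 7.84, −log10 q 11.8). The start-site summits of Ttc29 were shared with no neighbour.

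Ttc30a1 and Ttc30a2 are copies of a gene for IFT70, a subunit of intraflagellar transport complex B, and sit next to each other on chromosome 2 (75979106–75981967 and 75976172–75978179, both on the − strand). The RFX1 call of both copies rested on the same peak, whose summit lay 89 bp upstream of Ttc30a2 and 838 bp beyond the 3′ end of Ttc30a1, with a fold of 10.5 and a −log10 q of 28.1 (rank 3842). RFX3 was called elsewhere, 244 bp inside Ttc30a1, with a fold of 4.34 and a −log10 q of 14.4 (rank 6310), and 3544 bp from Ttc30a2. The RFX1 and RFX3 summits of Ttc30a1 were thus 3455 bp apart. Reads from stretches that gene copies share can be split or lost, and the handling of such reads is not stated in the labels. The promoter windows of the pair matched at 172 of 346 columns (49.7%) of an alignment with gaps, and the rest of the genes was not compared. No such share was computed for unrelated windows, so 49.7% does not show that these windows are alike. The Ttc30a2 window had the closest pattern among the members, with 1 mismatch in 12 letters, but its centre lay 71.5 bp from the RFX1 summit.

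The highest RFX1 ranks among the members were at Ttc41, Ttc16 and Ttc27. Ttc41, listed under the older name Gnn, lies on chromosome 10 (86705811–86776844, + strand) and was the only member with all 3 factors. RFX1 had a fold of 13.3 and a −log10 q of 126 there, rank 318 of 7440. RFX2 had a fold of 14.0 and a −log10 q of 64.2, rank 144 of 1250. RFX3 had a fold of 3.997 and a −log10 q of 42.5, rank 1955 of 9318. The only promoter listed for Ttc41 starts 6905 bp from the RFX1 and RFX3 summits and 6911 bp from the RFX2 summit. Counts at gene starts use its annotated start instead. The 3 summits lay 49, 43 and 49 bp inside the annotated start of Ttc41. They also lay 416, 410 and 416 bp from the start of Hsp90b1, which encodes a chaperone of the endoplasmic reticulum and runs in the opposite direction.

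Ttc16 lies on chromosome 2 (32757026–32775784, − strand) and had RFX1 at both ends. The stronger RFX1 peak was at the 3′ end, 71 bp inside the gene, with a fold of 14.5 and a −log10 q of 105 (rank 522). RFX3 shared that site, 82 bp inside, with a fold of 4.20 and a −log10 q of 38.0 (rank 2301). The same summits lay 137 and 126 bp upstream of Tor2a, a torsin family gene whose start is next to the 3′ end of Ttc16. The pattern in the Tor2a promoter above had 2 mismatches and was centred 9.5 bp from the RFX1 summit. A weaker RFX1 peak (fold 7.03, −log10 q 36.2, rank 2992) lay 371 bp inside the outer start of Ttc16, 74 bp upstream of the second of its 2 listed starts. Its summit was 1.0 bp from the centre of the pattern shown for Ttc16. At this start RFX3 had no summit within 1 kb. Inside Ttc16, 5876 and 5874 bp from its start, lay a further RFX1 summit (fold 5.99, −log10 q 21.7) and a further RFX3 summit (fold 6.33, −log10 q 22.2).

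Ttc27, on chromosome 17 (74717735–74863570, + strand), had summits upstream of its start that no neighbour shared. RFX1 lay 117 bp upstream with a fold of 10.4 and a −log10 q of 85.5 (rank 860), and RFX3 lay 122 bp upstream with a fold of 5.09 and a −log10 q of 32.1 (rank 2806). In the Ttc27 sequence above, the summits were 7.0 and 2.0 bp from the centre of the pattern, which had 3 mismatches. Ttc34, on chromosome 4 (154837308–154867125, + strand), ranked 1951 of 9318 in the RFX3 list, the best RFX3 rank among the members, and 3572 of 7440 in the RFX1 list. The folds at Ttc34 were 4.54 for RFX1 and 5.38 for RFX3, with −log10 q of 30.4 and 42.6, at 120 and 127 bp inside the gene. A second pair of Ttc34 summits lay inside the gene near its other end, 2798 and 2808 bp from it. Ttc13, on chromosome 8 (124671327–124722011, − strand), had the lowest RFX1 −log10 q, 25.6, with a fold of 5.21, and an RFX3 fold of 3.35 with a −log10 q of 24.6. Its summits, 183 and 195 bp upstream, lay inside Arv1, a sterol homeostasis gene that starts there on the opposite strand, 168 and 180 bp from the start of Arv1.

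**Figure D2:**
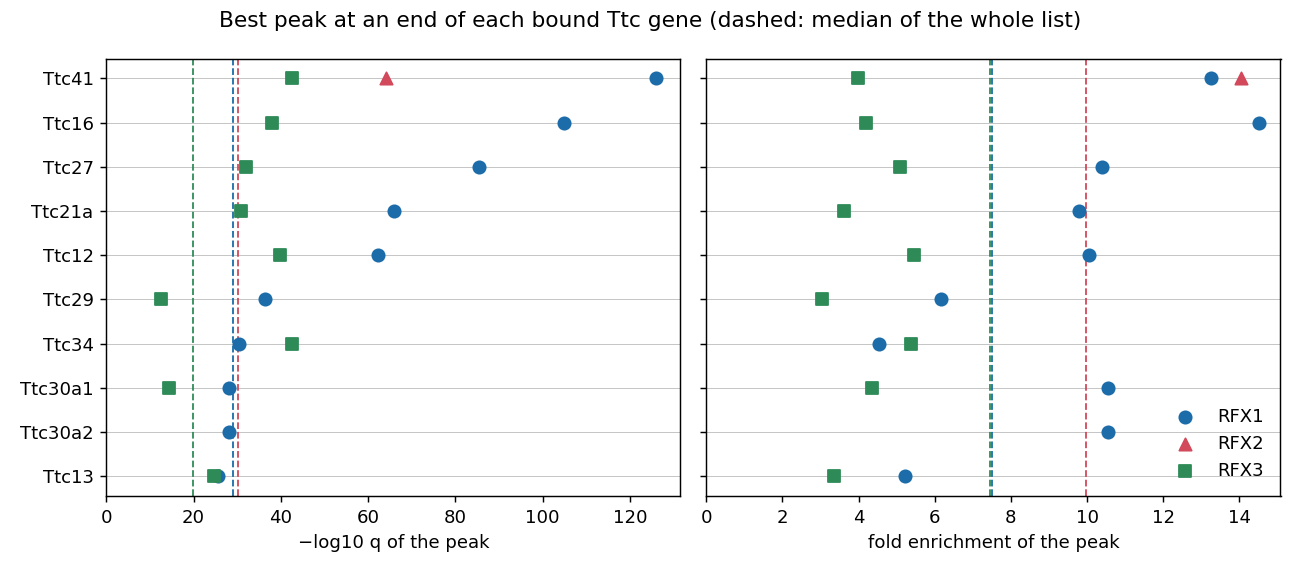
The best peak at an end of each of the 10 bound Ttc genes, by −log10 q (left) and fold enrichment (right); points are RFX1 (circles), RFX2 (triangle) and RFX3 (squares), and dashed lines are the medians of the whole lists. RFX1 spans 25.6 to 126 in −log10 q, and all 9 RFX3 folds lie left of the RFX3 median of 7.45.

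Over the bound members, RFX1 −log10 q ran from 25.6 (Ttc13) to 126 (Ttc41) with a median of 49.4, beside 48.0 for all 1677 RFX1 peaks at gene ends and 29.1 for the whole list. The RFX1 folds ran from 4.54 (Ttc34) to 14.5 (Ttc16) and 3 of 10 lay under the list median of 7.51, against 717 of 1677 peaks at gene ends (42.8%). RFX3 −log10 q ran from 12.7 (Ttc29) to 42.6 (Ttc34) with a median of 32.1, beside 31.6 for the 1488 RFX3 peaks at gene ends and 19.9 for the whole list. The RFX3 folds of the members were low: all 9 lay between 3.04 (Ttc29) and 5.46 (Ttc12), under the list median of 7.45. Low RFX3 folds were the rule at gene ends, where 1209 of 1488 peaks (81.2%) lay under that median and the median fold was 4.91. Each member entered these ranges by its best peak per factor, and the RFX1 peak shared by Ttc30a1 and Ttc30a2 counted for both. The values for gene ends cover every such peak once, weaker second peaks included. Folds of the 3 lists came from separate peak calling and are not compared with each other here.

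Where RFX1 and RFX3 were both called at a member, their summits nearly coincided. In 8 of 9 members the nearest summits lay within 20 bp of each other, from 0 bp at Ttc41 to 17 bp at Ttc29, and the median over all 9 was 7.0 bp. Ttc30a1 was the exception. The gap was not computed for all genes with both factors, so it is not known to be particular to the members. By its best peak, RFX1 was at the gene start in 8 of 10 members and at the 3′ end in Ttc16 and Ttc30a1. RFX3 was at the start in 8 of 9 and at the 3′ end in Ttc16. This split between the ends was not computed for all bound genes. Counting starts only, in the 32 members with a known strand, 9 had RFX1 (28.1%, against 8.53% of all genes), 8 had RFX3 (25.0%, against 7.33%) and 1 had RFX2 (3.12%, against 2.08%).

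**Figure D3:**
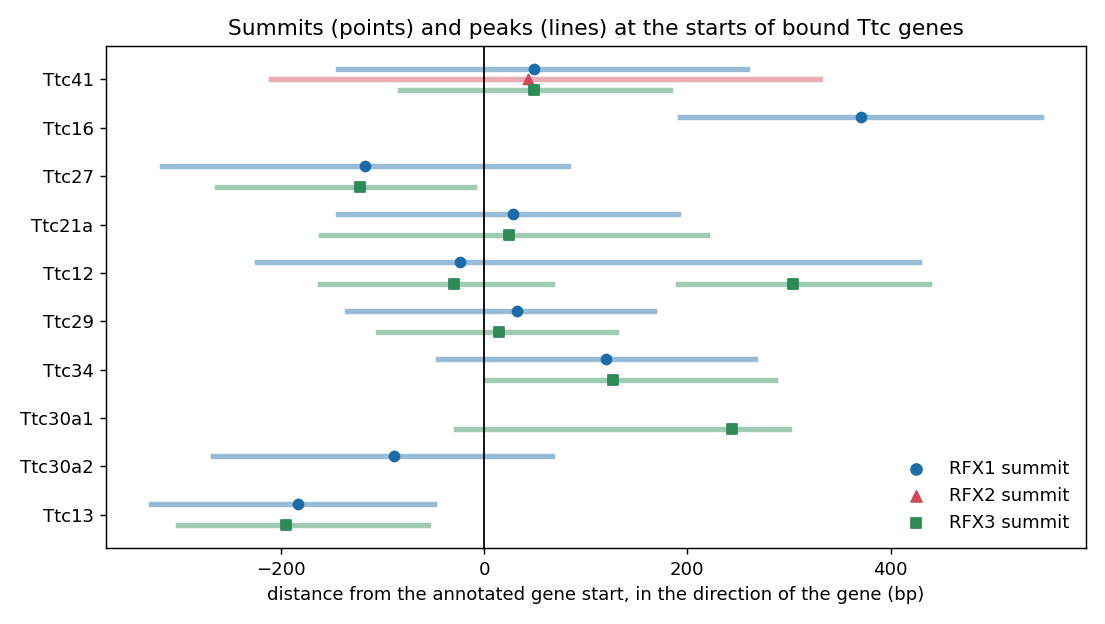
Summits (points) and peaks (lines) at the starts of the 10 bound Ttc genes, as distance in bp from the annotated gene start in the direction of the gene (horizontal axis); circles are RFX1, the triangle is RFX2 and squares are RFX3. Positions run from 195 bp upstream (RFX3 at Ttc13) to 371 bp inside (RFX1 at Ttc16), and RFX1 and RFX3 points are nearly aligned except at Ttc16, Ttc30a1 and Ttc30a2, where only 1 of the factors is at the start, and at the second RFX3 peak of Ttc12.

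Most member windows with a summit did not hold the X-box pattern as defined above. The promoter table held 37 windows for 32 members, several members having more than 1 start, and none for Ttc14, Ttc23, Ttc32, Ttc36 and Ttc39c. The pattern with up to 2 mismatches was found in 5 of 37 windows (13.5%), against 5.94% of the 21263 windows of protein-coding genes. These were Ttc30a2 (1 mismatch), Ttc16, Ttc6 and the 2 overlapping windows of Ttc23l (2 mismatches each), so 4 genes. Of the 8 member windows that held a summit, 2 had the pattern, against 536 of 1233 windows with a summit (43.5%) and 3.63% of windows without one. The other 6 (Ttc12, Ttc13, Ttc21a, Ttc27, Ttc29 and Ttc34) came closest with 3 mismatches, as did 35.2% of all windows with a summit and 25.9% of those without. The half-site GTTGCC, on either strand, stood in 4 of 37 member windows (10.8%), against 12.6% of all windows.

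The best match, mismatches included, usually lay near the summit. In 7 of 8 member windows the best match was centred within 30 bp of the RFX1 summit, against 781 of 1101 windows with an RFX1 summit (70.9%) and 60.6% of those with 3 or more mismatches. This limit was chosen after the distances were seen. A wider half-site, also added after the data were seen, allowed GTTGCC as before, GTTGCT as another form, GTTACC as a further form, and finally GTTACT, on either strand. It stood in 5 of 8 member windows with a summit (Ttc12, Ttc16, Ttc21a, Ttc27 and Ttc30a2) and in 8 of 29 without (27.6%), against 77.0% and 31.6% of all windows of each kind. Close letters did not always go with a call: Ttc23l and Ttc6 each had 2 mismatches, yet the nearest summit of any RFX lay 96578 bp from an end of Ttc23l and 16070 bp from an end of Ttc6. These distances run from the annotated ends, and the listed start of Ttc6 (57564115) lies inside the gene, away from its annotated start (57546704). No RFX summit lay within 1 kb of the centre of either pattern. No match in a window says only that these letters are not in those bases.

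**Figure D4:**
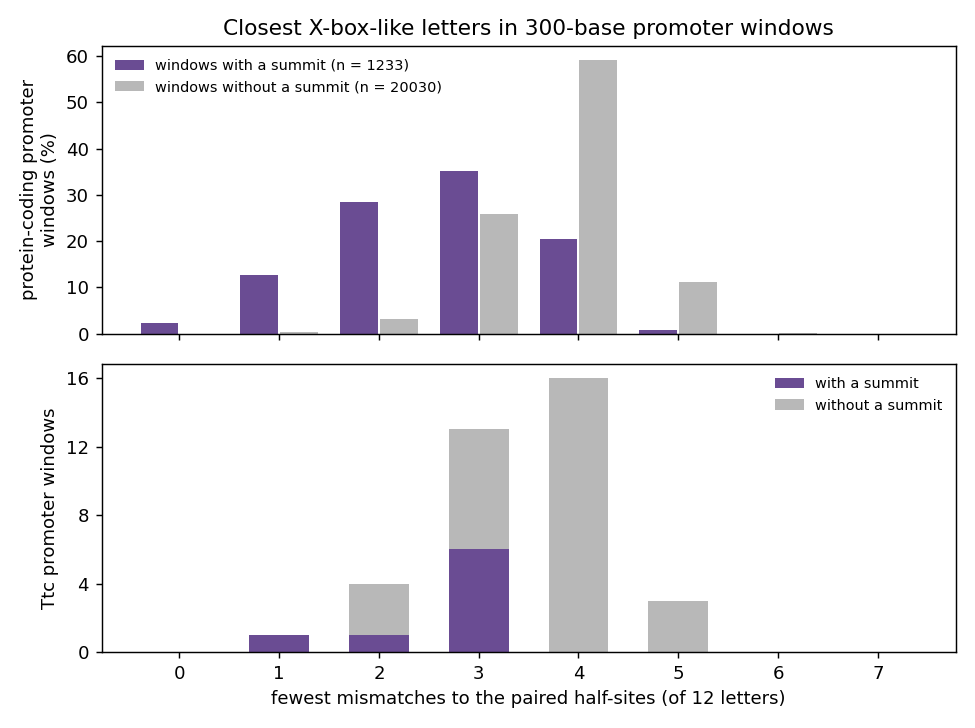
Fewest mismatches (horizontal axis, of 12 letters) to the X-box pattern in 300-base promoter windows. The upper panel gives the share (%) of protein-coding windows with and without an RFX summit, and the lower panel counts the 37 Ttc windows; the 8 Ttc windows with a summit had 1 mismatch (1 window), 2 (1 window) or 3 (6 windows).

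Roles were not counted over bound and unbound members. The 27 unbound members included members with known roles outside cilia and members with ciliary roles. Among them were Ttc1 and Ttc4, which act with heat-shock chaperones, Ttc3, a ubiquitin ligase, and Ttc5, which acts in tubulin autoregulation and as a cofactor of Ep300. Ttc7 and Ttc7b, scaffolds of the phosphatidylinositol 4-kinase Pi4ka, Ttc19, a factor for mitochondrial complex III, and Ttc37, a subunit of the superkiller complex of RNA decay, were also unbound. So were Ttc17, which acts in actin organisation and cilium formation, and Ttc23, a protein of the Ellis-van Creveld zone at the ciliary base. The remainder were Ttc6, Ttc9, Ttc9b, Ttc9c, Ttc14, Ttc22, Ttc23l, Ttc24, Ttc28, Ttc32, Ttc33, Ttc36, Ttc38, Ttc39a, Ttc39b, Ttc39c and Ttc39d. The nearest summit of any RFX lay within 10 kb of an end in 8 of the 27 (29.6%), against 14.8% of the 19676 unbound protein-coding genes. It lay farther away in 19. Over all 27 unbound members the median distance was 26.4 kb, and the farthest was at Ttc38 (142 kb). Widening the window around the annotated ends to 5 kb added no bound member and gave Ttc30a2 an RFX3 call. The share with at least 1 RFX thus stayed at 27.0%, while that of all genes rose from 10.1% to 17.1%.

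The 8 members with a near summit were Ttc3, Ttc5, Ttc7b, Ttc17, Ttc22, Ttc28, Ttc39a and Ttc39d. Next to Ttc39d, RFX1 had a peak of −log10 q 111 (rank 445), RFX3 one of 107 (rank 217) and RFX2 one of 26.1, at 8450, 8444 and 8484 bp. That site lay at the ends of Gemin6 and Srsf7, genes of RNA splicing, and not at Ttc39d itself. Ttc22 had summits 5179 bp (RFX1) and 5170 bp (RFX3) away that lay at an end of Lexm. The RFX1 summit 6394 bp from Ttc28 lay at an end of Chek2, a checkpoint kinase gene. Ttc3 had an RFX1 peak with a fold of 15.9 at 8309 bp and an RFX3 peak with a fold of 11.3 at 8320 bp, with no protein-coding gene end within 1 kb. Near Ttc5, RFX1 (fold 4.89) and RFX3 (fold 11.0) lay at 6633 and 6618 bp. Ttc7b had them at 9309 and 9267 bp (folds of 7.26 and 4.29), and Ttc39a at 8260 and 8328 bp (folds of 5.91 and 11.4). The nearest RFX1 and RFX3 summits of Ttc17 lay inside the gene, 8169 and 8156 bp from its start, with folds of 5.31 and 3.70.

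Some unbound members held sites inside the gene. A summit more than 1 kb from both ends was found in 7 of 27 unbound members (25.9%), against 13.4% of the 19676 unbound protein-coding genes. The unbound members were longer, with a median of 36300 bp against 16500 bp, and the part of length in this share was not tested. Ttc9 had a pair of sites for each of 2 factors: RFX3 folds of 17.1 and 12.6 and RFX1 folds of 8.40 and 7.28, about 11.4 and 13.9 kb from the nearer end. Ttc28, the longest member, held 4 RFX3 and 2 RFX1 summits, with folds from 3.04 to 7.66. Ttc22 held an RFX1 summit with a −log10 q of 72.3 and an RFX3 summit with 39.1, 8.34 and 8.32 kb from its start. Ttc7 and Ttc39a each held 1 RFX1 and 1 RFX3 summit, Ttc17 the pair named above, and Ttc3 1 RFX1 summit. The Ttc39a summits lay 25.0 and 25.1 kb from the nearer annotated end. From the only promoter start listed for Ttc39a they lay 3549 bp (RFX1) and 3571 bp (RFX3).

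**Figure D5:**
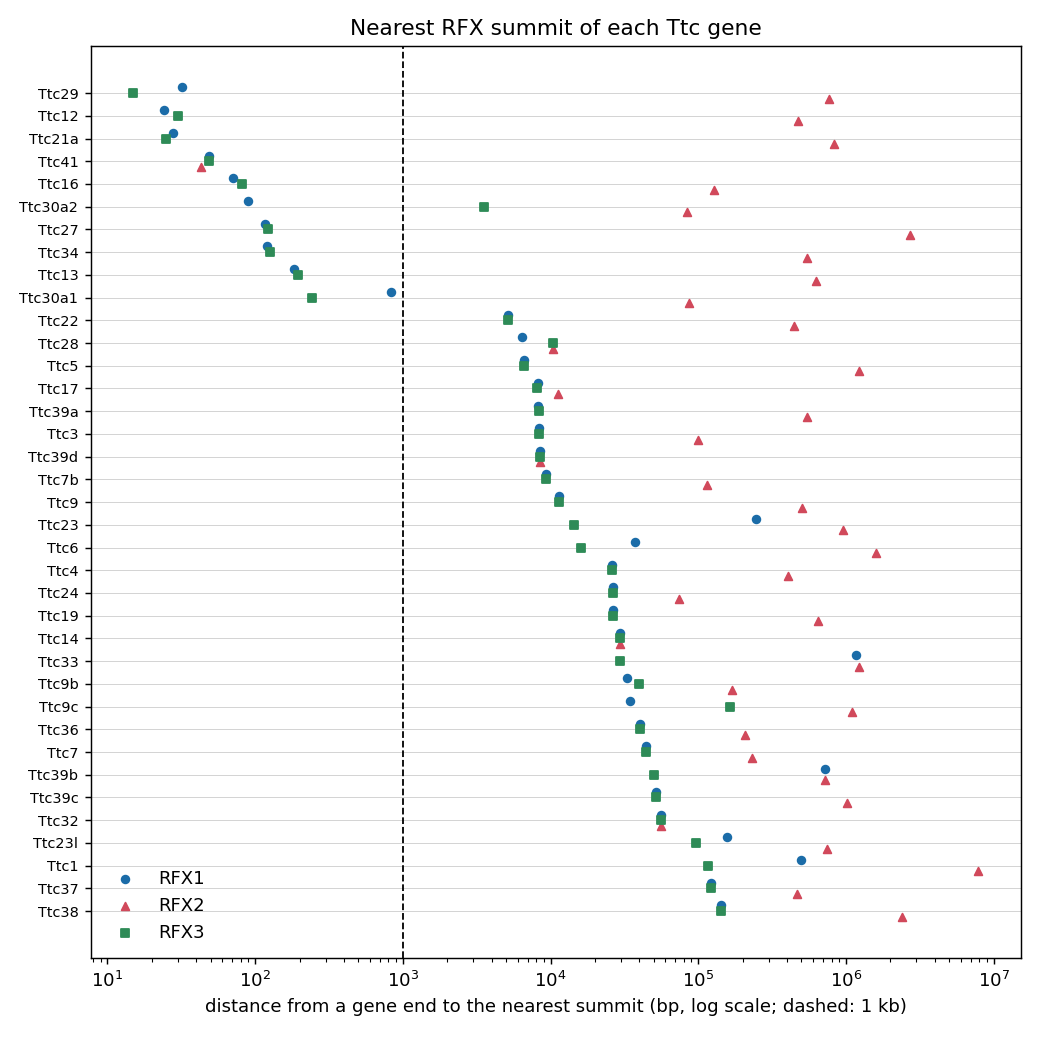
Distance in bp (log scale, horizontal axis) from an end of each of the 37 Ttc genes to the nearest summit of RFX1 (circles), RFX3 (squares) and RFX2 (triangles); the dashed line marks 1 kb. The 10 bound members lie left of the line for at least 1 factor, and no unbound member has a summit nearer than 5170 bp.

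The other genes of this repeat family and the known partners of Ttc proteins had RFX1 and RFX3 shares that lay within the intervals of the members. Of 53 repeat genes that are not named Ttc, RFX1 was bound at 15 (28.3%, 16.8 to 42.3), RFX3 at 14 (26.4%, 15.3 to 40.3) and RFX2 at 1 (1.89%, 0.0478 to 10.1). Dnajc7, a co-chaperone gene, was the 1 with all 3 factors, with folds of 10.6, 14.0 and 6.79 for RFX1, RFX2 and RFX3. The transport gene Ift88, the BBSome gene Bbs4 and the axonemal gene Cfap70 were among those with RFX1 and RFX3, and their RFX1 summits lay 30, 5 and 31 bp from a gene end; they were named after their values were seen. Of 17 partner genes, RFX1 was bound at 4 (23.5%, 6.81 to 49.9), RFX3 at 5 (29.4%, 10.3 to 56.0) and RFX2 at 0, which allows up to 19.5%. The RFX1 interval of the partners took in the 9.05% of all genes, and the RFX2 intervals of both lists took in 2.08%. The partners with a call, also named after their values were seen, were Iqce, Efcab7, Skiv2l and Hsp90aa1 with RFX1 and RFX3, and Fam126b with RFX3 alone. Iqce and Efcab7 act with Ttc23, and Skiv2l with Ttc37, while Ttc23 and Ttc37 had no summit within 1 kb. These pairs were picked from the partners with a call. The other partners had none: Wdr61, Pi4ka, Fam126a, Efr3a, Efr3b, Evc, Evc2, Hsp90ab1, C2cd5, Uqcrfs1, Bcs1l and Ep300. Of the 5 Ttc genes that the rule left out, RFX1 and RFX3 were each bound at 4 (80.0%, 28.4 to 99.5) and RFX2 at 1.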

How the data were processed

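For each RFX, 1 deposited list of reproducible peaks was used, in which the authors had merged both ChIP replicates. The deposited fold enrichment (a ratio) and the deposited −log10 q of each peak are the authors' values, and the deposited summit offset gave the other position used. MACS2 (2.0.10.20130520), Bowtie (0.12.7), CASAVA (1.8.2) and the build GRCm38 appear in the submitters' processing notes without their roles. The sources used here do not give the peak threshold, the control sample or the depth. A further value column in each list (1 per list) was not used. Genes came from a RefSeq table of GRCm38.p6 (protein-coding, assembled chromosomes), and strand and promoter sequence from the RefSeq promoter table of that build.

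Summits were assigned to gene ends within 1 kb with Python 3.11.15 and pandas 2.3.3, after a check on simulated peaks. Shares carry 95% Clopper-Pearson intervals (scipy 1.17.1). No test was run, because replicates were merged and members are not replicates. Of the 37 members, 32 had a promoter window. Every member is named; bound members and those with a summit within 10 kb are given with values, as are genes sharing a summit, except 1 that is not reported here. The members, the gene lists, the search pattern and the alternatives were chosen with earlier results of these data known.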

Additional observations from a re-analysis of the deposited data

How the results depend on the processing

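The counts of bound members were recomputed under 8 alternatives. Of the resulting 32 counts, 24 stayed within 1.5 times the count reported and 8 did not. With each list kept to its best 1250 peaks, RFX1 was bound at 3 members, RFX3 at 0 and at least 1 RFX at 3 (8.11%, against 3.64% of all genes). With summits shared by another gene left out, the counts were 4 for RFX1, 0 for RFX2, 5 for RFX3 and 5 for at least 1 RFX (13.5%, against 6.89%). With a fold of at least 4, RFX3 was bound at 5 members (13.5%, against 5.39%); it lost Ttc13, Ttc21a, Ttc29 and Ttc41. The windows of 500 bp and 5 kb, the better-scoring 50% of peaks, any part of a peak in the window, and gene starts only gave counts within 1.5 times. Leaving out a replicate was not run. No paired analysis was possible because the replicates were merged in the lists.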
